A study of Homo sapiens with 12 samples.

Results

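The passage change of IMR-90 fibroblasts was compared between 20% and 3% oxygen, gene by gene, as the difference (senescent minus young cells at 20% oxygen) minus (old minus young cells at 3% oxygen), called the interaction here. Of 19775 genes measured, 1273 passed the test of this difference (limma, adjusted p under 0.05) and form the set described. They were then sorted by which of the passage changes passed a test at the same adjusted threshold. Of them, 983 were called at 20% oxygen only, 100 at 3% oxygen only and 72 in opposite directions. Another 25 were called in the same direction with a different size, and 93 at neither level taken alone. Adjustment was made within each contrast, so a call at 3% oxygen needed a smaller unadjusted p than at 20%. By limma, BMP2 was called at 20% with an unadjusted p of 0.00359, and AK4 was not at 3% with 0.00116. A gene not called at a level is therefore not shown to be unchanged there. IMR-90 is an established line of human lung fibroblasts, received at population doubling 27 and grown as monolayers in medium with fetal bovine serum to 80% confluency. RNA was hybridised to 12 Affymetrix arrays, 3 to a group.

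The groups were young cells (population doubling 30) and senescent cells (population doubling 48) kept at 20% oxygen, and young cells (population doubling 30) and old cells that were not senescent (population doubling 53) kept at 3% oxygen. No agent other than the oxygen level was given, and each level had its own incubator, with nitrogen used to hold 3%. Oxygen and incubator therefore cannot be told apart, and neither can the senescent state of the late cells at 20% oxygen, the doubling at which the late cells were taken, and the oxygen level itself within the interaction. The labels call the replicates of a group biological and number them, and nothing else says that they came from separate cultures, so p-values measure only the spread between these arrays. All values are log2 signals relative to the median of the same probe set over the 12 arrays. Levels between genes cannot be compared, and whether a marker is absent cannot be read. A value after ± is a standard error of a log2 change, with n = 3 arrays per group, unless SD is named.

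Normal fibroblasts divide a limited number of times in culture and then enter senescence, a lasting arrest held by cyclin-dependent kinase inhibitors such as CDKN1A and CDKN2A and often joined by the secretion of cytokines, proteases and growth factors. Atmospheric oxygen is far above the level in most tissues, and human fibroblasts often reach more doublings in low oxygen. Cells read oxygen through prolyl hydroxylases of the EGLN family, which mark the hypoxia-inducible factors (HIF) for destruction when oxygen is present. When oxygen is scarce, the factors pair with ARNT, bind the DNA core ACGTG or GCGTG and raise genes of glycolysis, mitophagy and collagen modification.

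The promoters of 4 genes of that pathway called higher in the interaction are shown with each ACGTG core, on either strand, in capitals. The 4 were picked from called genes whose promoter held this core, so its presence in them follows from the choice. These promoters come from RefSeq (GRCh38.p14) and span 250 bases before to 50 bases after the gene's start, 300 in all. They are printed on the gene's own strand. ENO2 (a glycolytic enolase) lies at chr12:6914330-6914629, plus strand; BNIP3 (a mitophagy receptor) at chr10:131981874-131982173, minus strand. AK4 (a mitochondrial adenylate kinase) lies at chr1:65147302-65147601, plus strand, and ERO1A (an oxidase that forms disulphide bonds in the endoplasmic reticulum) at chr14:52695509-52695808, minus strand.
ENO2: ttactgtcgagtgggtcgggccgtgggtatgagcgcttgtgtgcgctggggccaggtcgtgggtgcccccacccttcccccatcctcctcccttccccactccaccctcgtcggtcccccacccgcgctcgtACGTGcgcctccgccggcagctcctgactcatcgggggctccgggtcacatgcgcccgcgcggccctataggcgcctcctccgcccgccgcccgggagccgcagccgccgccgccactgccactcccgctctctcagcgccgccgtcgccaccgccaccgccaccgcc
BNIP3: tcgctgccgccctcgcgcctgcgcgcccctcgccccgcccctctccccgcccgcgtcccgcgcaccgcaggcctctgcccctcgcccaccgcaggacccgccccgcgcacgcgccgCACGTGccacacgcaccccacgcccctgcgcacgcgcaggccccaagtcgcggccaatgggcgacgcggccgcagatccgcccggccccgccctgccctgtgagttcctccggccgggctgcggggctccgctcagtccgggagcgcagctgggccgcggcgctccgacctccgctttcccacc
AK4: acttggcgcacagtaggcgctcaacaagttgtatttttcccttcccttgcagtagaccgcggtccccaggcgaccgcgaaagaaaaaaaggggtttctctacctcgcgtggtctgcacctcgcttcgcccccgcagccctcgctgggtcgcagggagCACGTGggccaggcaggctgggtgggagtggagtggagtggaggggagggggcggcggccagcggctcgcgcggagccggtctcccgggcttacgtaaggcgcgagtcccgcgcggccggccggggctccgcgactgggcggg
ERO1A: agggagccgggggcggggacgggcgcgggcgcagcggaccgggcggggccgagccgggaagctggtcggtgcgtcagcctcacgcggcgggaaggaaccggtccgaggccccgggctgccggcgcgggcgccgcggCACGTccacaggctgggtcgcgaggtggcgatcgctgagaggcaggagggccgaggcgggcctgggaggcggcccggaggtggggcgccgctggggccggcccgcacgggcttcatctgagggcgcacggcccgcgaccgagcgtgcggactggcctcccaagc
In BNIP3 and AK4 the capitals CACGTG hold the core on both strands and so count as 2 matches in the same place, and ERO1A holds it on the opposite strand (CACGT). Over all 27305 RefSeq promoters of this length, 21.6% held ACGTG on either strand, and over the 15384 tested genes with a promoter in the table the share was 24.1%. It was 57.6% (19 of 33) for the HIF targets and glycolysis genes called in the interaction, and 58.3% (21 of 36) for all HIF targets, called or not. Among all genes called higher in the interaction it was 27.1%, among those called lower 23.7%, and among those called in opposite directions 25%. With GCGTG counted as well, the share was 56.4% over the tested genes and 75.8% for the called HIF targets and glycolysis genes. It was then 83.3% for all HIF targets, 53.0% for genes called higher, 62.4% for genes called lower and 60.7% for the opposite class. A match describes these letters only and is not shown to be a site.

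The pregnancy-specific glycoproteins (PSG), secreted immunoglobulin-like proteins made mainly by the placenta, were another set mostly called higher in the interaction. Promoters of PSG3 (chr19:42740432-42740731, minus strand) and PSG4 (chr19:43205589-43205888, minus strand) are shown because these promoters are much alike and both genes were called higher in the interaction. PSG3 was called at 20% oxygen only and PSG4 in opposite directions. Young cells at 20% oxygen lay below those at 3% in PSG3, and the young groups overlapped in PSG4. Capitals in PSG4 mark bases that differ from the aligned PSG3 promoter.
PSG3: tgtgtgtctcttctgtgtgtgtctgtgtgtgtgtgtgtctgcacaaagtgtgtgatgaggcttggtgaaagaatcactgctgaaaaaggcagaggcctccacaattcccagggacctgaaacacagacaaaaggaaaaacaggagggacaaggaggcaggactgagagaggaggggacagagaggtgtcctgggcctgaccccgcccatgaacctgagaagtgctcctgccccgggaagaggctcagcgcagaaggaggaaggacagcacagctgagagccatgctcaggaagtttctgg
PSG4: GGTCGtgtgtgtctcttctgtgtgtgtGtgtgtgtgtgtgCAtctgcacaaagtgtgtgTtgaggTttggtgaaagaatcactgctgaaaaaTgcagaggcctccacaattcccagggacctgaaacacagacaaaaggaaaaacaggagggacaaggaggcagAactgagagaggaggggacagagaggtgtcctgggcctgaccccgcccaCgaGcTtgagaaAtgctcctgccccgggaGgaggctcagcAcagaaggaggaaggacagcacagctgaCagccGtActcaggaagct
Their promoters were 91.5% identical, and both were 75.3% to 76.7% identical to that of PSG5. Whether the probe sets of this multigene family share signal was not tested, so which PSG gene a value belongs to is uncertain.

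The interaction was called in 6.44% of genes, with the passage change higher at 20% than at 3% oxygen in 408 (2.06%) and lower in 865 (4.37%). At an unadjusted p under 0.05 there were 3540. The median interaction of all genes was -0.03. The passage change itself was called for 2474 genes (12.5%) at 20% oxygen, 923 higher (4.67%) and 1551 lower (7.84%) in senescent cells. At 3% oxygen it was called for 344 genes (1.74%), 194 higher (0.981%) and 150 lower (0.759%) in old cells. Just inside the threshold of the interaction lay MGAT2 (adjusted p = 0.0499) and ARCN1 (0.04997), and just outside it SHCBP1 and TIMM17A (both 0.05002). One array stood apart in RNA quality: for ACTB, the 3' control probe set read 0.71 above the 5' one in young cells at 3% oxygen, replicate 2, against -0.22 to 0.35 in the other arrays. Without that array 1057 genes were called, of which 50 changed in opposite directions.

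**Figure D1:**
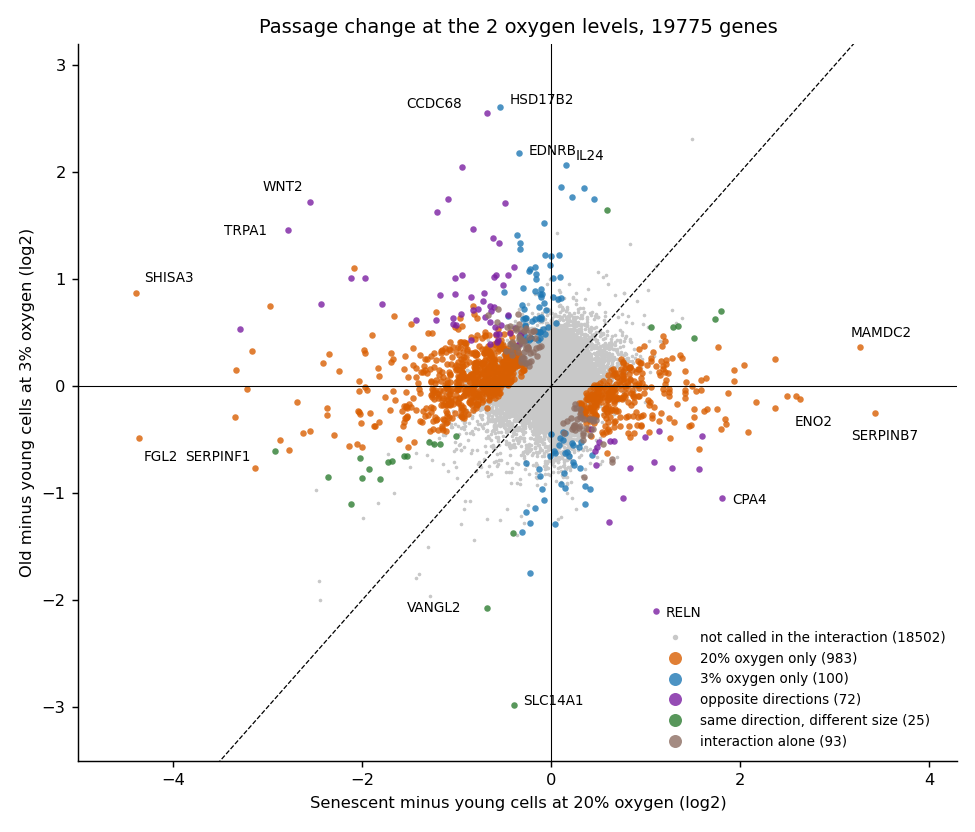
Passage change of every gene at 20% oxygen (x axis, log2, senescent minus young) and at 3% oxygen (y axis, log2, old minus young), coloured by class, with equal changes on the dashed line. The 983 genes called at 20% oxygen only spread along the x axis, the 100 called at 3% oxygen only along the y axis, and the 72 called in opposite directions lie in the upper left and lower right.

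Genes called at 20% oxygen only made up 77.2% of the calls, with 308 rising and 675 falling in senescent cells. Their median absolute change was 0.76 at 20% oxygen and 0.16 at 3%. For 670 of the 983 the 95% interval of the change at 3% oxygen lay wholly within -0.5 to 0.5, and for the others it reached beyond those bounds. By estimate alone, 666 of the 983 moved the other way at 3% oxygen, where these changes did not pass the test. Choosing genes by the interaction favours opposite signs. Of the 18502 genes not called in it, 8080 had estimates of opposite sign. Without replicate 1 of young cells at 20% oxygen the class held 649 genes.

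SHISA3, whose product retains WNT and FGF receptors inside the cell, had the interaction furthest from 0. Its values were 2.29, 2.85 and 2.32 in young and -2.07, -2.20 and -1.43 in senescent cells at 20% oxygen, against -0.20, -0.43 and -0.61 in young and 0.70, 0.48 and 0.20 in old cells at 3%. The 20% oxygen groups bounded the range, young cells highest and senescent cells lowest, and the 4 groups did not overlap. SHISA3 fell by 4.39 ± 0.21 with passage at 20% oxygen (20.9-fold, adjusted p = 6.57e-08), the value at 3% was 0.87 ± 0.21 (adjusted p = 0.0676), and the interaction was -5.26 ± 0.30 (adjusted p = 7.5e-07).

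FGL2, a secreted fibrinogen-like protein, read 1.32, 1.52 and 1.06 in young and -2.78, -3.39 and -3.00 in senescent cells at 20% oxygen, and 0.04, 0.22 and 0.43 in young and -0.02, -0.31 and -0.43 in old cells at 3%. Senescent cells alone were far below the other groups. The interaction was -3.87 ± 0.25 (adjusted p = 1.45e-06). RARRES2 (chemerin, a chemoattractant for leukocytes) had an interaction of -3.49 ± 0.25 as well, but from the young cells: they read 3.07, 3.30 and 3.01 at 20% oxygen, and every other array lay between -0.58 and 0.13. WFDC1, a secreted protein with a protease inhibitor fold, fell by 3.16 at 20% oxygen, with an interaction of -3.49 ± 0.18.

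On the rising side, SERPINB7, an intracellular serpin, read -2.56, -2.29 and -2.62 in young and 0.98, 1.02 and 0.82 in senescent cells at 20% oxygen, against 0.09, -0.09 and 0.24 in young and 0.12, -0.33 and -0.29 in old cells at 3%. Young cells at 20% oxygen were lowest and senescent cells highest, and the 3% oxygen groups overlapped between them (interaction 3.68 ± 0.20, adjusted p = 4.97e-07). MAMDC2, a matrix protein of the MAM domain family, read -0.92, -0.80 and -1.03 in young and 2.47, 2.33 and 2.26 in senescent cells at 20% oxygen, and between -0.35 and 0.39 at 3%. It rose by 3.27 ± 0.12 at 20% oxygen (9.65-fold), and the interaction was 2.91 ± 0.17. MOK, a protein kinase related to the MAP kinases, was high in senescent cells only (2.56, 2.54 and 2.36, with all other arrays between -0.52 and 0.30), with an interaction of 2.68 ± 0.25.

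Of the gene lists compared, HIF targets had the most members called higher, nearly all at 20% oxygen only. Of 44 measured targets, 28 were called higher in the interaction (63.6%, against 2.06% of all genes) and none lower, and 35 had an unadjusted p under 0.05. The median interaction was 0.72, against -0.03 for all genes, from a median passage change of 0.84 at 20% oxygen and 0.02 at 3%. Leaving out 1 array at a time left 21 to 27 called higher and 0 or 1 lower. The mean of the list was -0.67 ± 0.02 in young and 0.21 ± 0.06 in senescent cells at 20% oxygen, 0.03 ± 0.04 in young and 0.07 ± 0.10 in old cells at 3% (SD, n = 3). Young cells at 20% oxygen stood below the other groups, with no overlap.

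ENO2 read -1.90, -1.94 and -2.04 in young and 0.67, 0.67 and 0.66 in senescent cells at 20% oxygen, and -0.18, 0.29 and 0.13 in young and 0.01, -0.01 and -0.11 in old cells at 3%. BNIP3 read -1.79, -2.06 and -2.03 in young and 0.37, 0.41 and 0.45 in senescent cells at 20% oxygen, and 0.14, 0.19 and 0.02 in young and -0.03, -0.04 and -0.19 in old cells at 3%. In both genes the young cells at 20% oxygen were low, the senescent cells slightly above all cells at 3%, and young and old cells at 3% oxygen close together. The interaction was 2.75 ± 0.16 for ENO2 (adjusted p = 7.5e-07), 2.57 ± 0.14 for BNIP3 (4.97e-07) and 2.58 ± 0.13 for MXI1, a MYC antagonist (3.05e-07). The change at 3% oxygen had 95% intervals of -0.36 to 0.12 for ENO2, -0.41 to 0.01 for BNIP3 and -0.29 to 0.11 for MXI1.

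AK4 read -1.34, -1.28 and -1.27 in young and 0.52, 0.59 and 0.42 in senescent cells at 20% oxygen, against 0.27, 0.17 and 0.15 in young and -0.04, -0.26 and -0.31 in old cells at 3%. Its interaction of 2.20 ± 0.13 joined a rise of 1.80 ± 0.09 at 20% oxygen to a value of -0.39 ± 0.09 at 3% (adjusted p = 0.0586). Other targets called higher included NDRG1 (2.11, a stress-induced protein), HILPDA (1.87, a lipid droplet protein), DDIT4 (1.84, an inhibitor of mTORC1) and FAM162A (1.64, a mitochondrial protein of hypoxic cell death). MAFF, a small MAF transcription factor, was the 1 called target outside the class (interaction 0.50), with neither passage change called.

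Not every target followed. VEGFA, the growth factor of blood vessels, had an interaction of 0.13 ± 0.16 (adjusted p = 0.733), with probe sets from -0.22 to 0.35. WSB1, part of a ubiquitin ligase, had 1.02 ± 0.31 (adjusted p = 0.0791). EGLN3, an oxygen-sensing hydroxylase and itself a target, read 0.02, 0.07 and 0.00 in young and 1.20, 0.95 and 0.82 in old cells at 3% oxygen, and was the 1 target called at 3% oxygen. It rose by 0.96 ± 0.15 there, with 0.20 ± 0.15 at 20% oxygen and an interaction of -0.76 ± 0.22 that was not called (adjusted p = 0.057).

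Of the 14 sensors, subunits and cofactors of the HIF system, 0 were called in the interaction by limma (6.44% of all genes), with 4 at an unadjusted p under 0.05. HIF1A, the oxygen-regulated subunit, had 0.02 ± 0.13 (adjusted p = 0.963). EPAS1, the alternative subunit, had -0.19 ± 0.14, and -0.60 (adjusted p = 0.0235) when the probe set with the largest SD stood for the gene. These are transcript values, and the factors themselves are regulated as proteins, which were not measured.

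**Figure D2:**
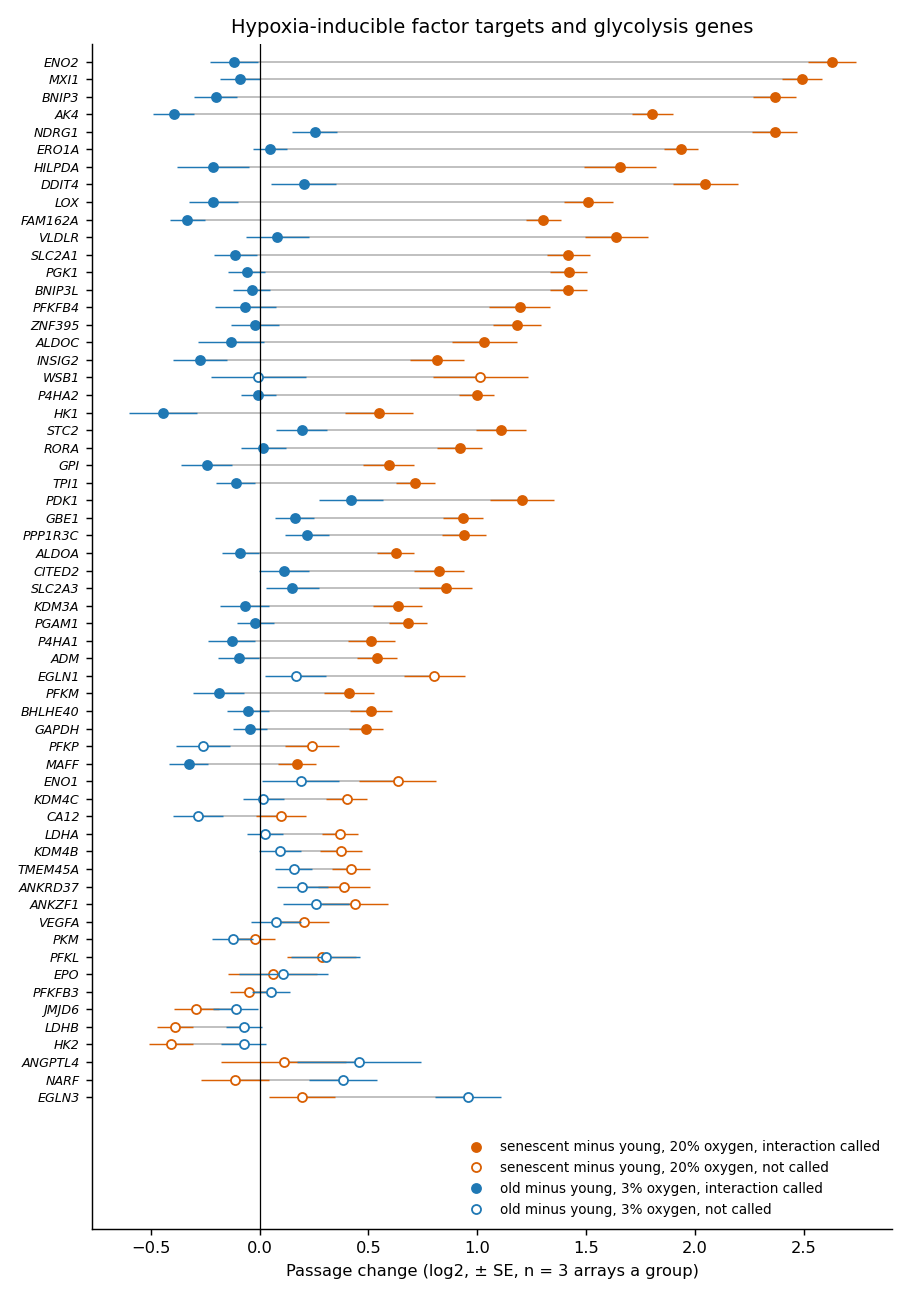
Passage change (x axis, log2, ± SE) of every measured HIF target and glycolysis gene at 20% oxygen (orange) and 3% oxygen (blue), ordered by the interaction, with filled points where it was called. Most orange points lie above 0 and the blue points near it, with EGLN3 at the bottom as the target that rose at 3% oxygen.

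Glycolysis genes gave the same shape. Of 18 measured, 11 were called higher (61.1%, against 2.06% of all genes) and none lower (4.37% of all genes). The median interaction was 0.65, from a passage change of 0.57 at 20% oxygen and -0.10 at 3%. PGK1, which makes ATP in glycolysis, read -1.08, -1.08 and -1.14 in young and 0.25, 0.32 and 0.38 in senescent cells at 20% oxygen, and between -0.06 and 0.12 in all 6 arrays at 3%. Its interaction was 1.48 ± 0.12 (adjusted p = 1.24e-05). The glucose transporter SLC2A1, a member of both lists, had 1.53 ± 0.14 and ALDOC, an aldolase, 1.16 ± 0.21. Isoforms of the same step differed in their values: HK1 was called at 0.99 and HK2 had -0.33, PFKM was called at 0.60 and PFKL had -0.02.

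Of 53 matrix and crosslinking genes, 10 were called higher and 10 lower (18.9% each, against 2.06% and 4.37% of all genes). The median interaction was 0.00. Split after the values were seen, the prolyl hydroxylases, lysyl hydroxylases and lysyl oxidases had 7 of 11 higher and 0 lower, with a median of 1.00, and the other 42 genes had 3 higher and 10 lower, with the rest not called and a median of -0.06. LOX, which crosslinks collagen and elastin, read -1.14, -1.25 and -1.03 in young and 0.33, 0.46 and 0.32 in senescent cells at 20% oxygen, against 0.24, -0.12 and 0.17 in young and -0.04, -0.06 and -0.25 in old cells at 3%. Its interaction was 1.72 ± 0.16; PLOD1 had 1.55 ± 0.24, LOXL3 1.49 ± 0.28, PLOD2 1.02 and P4HA2 1.00. P4HA1, P4HA2 and LOX are also in the list of HIF targets.

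Among the 10 matrix genes called lower, LUM (lumican), a collagen-binding proteoglycan, read 1.38, 1.34 and 1.20 in young and -0.10, -0.18 and -0.08 in senescent cells at 20% oxygen, and between -0.23 and 0.08 at 3% (interaction -1.60 ± 0.14). DCN (decorin) had -1.18 ± 0.14 and TNC (tenascin C) -1.98 ± 0.19, each with young cells at 20% oxygen above all other arrays. COL14A1 had -2.07 ± 0.18 as a mean of 4 probe sets that ran from -4.61 to 0.22. Fibroblast markers as a list had 5 of 16 lower (among them LUM, DCN, PDGFRA and VIM) and 1 higher (FAP), against 4.37% and 2.06% of all genes. PDGFRA is a mean of 4 probe sets that ran from -1.51 to 0.57. FAP kept its class in 6 of the 12 fits without 1 array. Of the 15 epithelial, 12 endothelial and 12 immune markers, 0 were called by limma in the interaction, and 0, 1 and 0 had an unadjusted p under 0.05. The share of cells carrying a transcript and its amount per cell cannot be told apart in these bulk arrays.

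Immediate-early genes are the transcription factors and feedback regulators that serum and stress induce within minutes. Their calls were mostly on the lower side. Of 30 measured, 11 were called lower (4.37% of all genes) and 4 higher (2.06% of all genes), with a median interaction of -0.26. FOS, a subunit of AP-1, read 2.32, 2.70 and 2.66 in young and -0.62, -0.20 and -0.44 in senescent cells at 20% oxygen, and -0.23, -0.28 and -0.03 in young and 0.86, 0.81 and 0.03 in old cells at 3%. Young cells at 20% oxygen were far above the other groups. The interaction of FOS was -3.73 ± 0.28 (adjusted p = 7.21e-06), that of the zinc-finger factor EGR3 -2.37 ± 0.34 and that of ZFP36, which destabilises mRNAs, -1.49 ± 0.27. NR4A2, an orphan nuclear receptor of the same list, instead rose at 3% oxygen only, by 1.42 ± 0.16 (interaction -1.77 ± 0.23).

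Of 25 targets and components of TGF-beta and BMP signalling, 11 were called lower and 2 higher (44% and 8%, against 4.37% and 2.06% of all genes). The median interaction was -0.51, from -0.37 at 20% oxygen and 0.18 at 3%. All 4 ID genes, inhibitors of helix-loop-helix factors and direct targets of BMP signalling, were among the 11. ID1 read 0.03, 0.19 and -0.03 in young and -1.90, -1.67 and -2.49 in senescent cells at 20% oxygen, and -0.29, -0.76 and 0.40 in young and 1.29, 0.81 and 0.57 in old cells at 3%. It was thus lowest in senescent and highest in old cells, with an interaction of -3.20 ± 0.39 (adjusted p = 0.00034) and a value at 3% oxygen of 1.11 ± 0.28 that was not called (adjusted p = 0.0772). SMAD7, a feedback inhibitor, had an interaction of -2.33 ± 0.22, ID4 -1.55 ± 0.13 and ID2 -1.31 ± 0.15. Of the called-higher pair, TGFB2, a ligand, had 0.84, and NOG, a BMP antagonist, 1.29 ± 0.30 from a fall of 0.93 at 3% oxygen. The call of NOG ended in 6 of the fits without 1 array (adjusted p up to 0.0617) and after quantile normalization (adjusted p = 0.106). Contractile genes had 4 of 19 lower and 1 higher (median -0.43), with 2 lower without replicate 1 of young cells at 20% oxygen, and ACTC1, cardiac actin, led them with -1.65 ± 0.22.

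Pregnancy-specific glycoproteins were called higher in 8 of 9 genes (88.9%, against 2.06% of all genes) and lower in none. These counts held with all arrays and in all 12 fits without 1 array. The median interaction was 1.85, from a passage change of 1.56 at 20% oxygen and -0.42 at 3%. PSG3, the gene with the first of the PSG promoters printed above, read -0.75, -1.05 and -1.60 in young and 0.91, 1.15 and 0.79 in senescent cells at 20% oxygen, against 0.44, 0.13 and 0.11 in young and -0.11, -0.32 and -0.17 in old cells at 3%. Senescent cells were highest and young cells at 20% oxygen lowest (interaction 2.50 ± 0.26, adjusted p = 8.59e-05). PSG5 had 2.20 ± 0.18, with probe sets from 0.52 to 3.87. PSG11 was the member not called (0.62).

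Genes of the senescence secretory list had 11 of 48 called lower and 3 higher (22.9% and 6.25%, against 4.37% and 2.06% of all genes). IL6, an inflammatory cytokine, read 0.09, 0.12 and 0.08 in young and -1.04, -1.26 and -1.35 in senescent cells at 20% oxygen, and between -0.41 and 0.22 at 3%. Its interaction was -1.57 ± 0.17 (adjusted p = 0.000142), with senescent cells as the group apart and lower. IL11, a cytokine of the same family, had -1.83 ± 0.16, and PLAU, the urokinase plasminogen activator, -2.06 ± 0.21. The interaction was above 0 for the collagenase MMP1 (1.09), the stromelysin MMP3 (1.02 ± 0.27, adjusted p = 0.0425) and IGFBP3, which binds insulin-like growth factors (1.57). The call of MMP3 ended in 10 of the fits without 1 array (adjusted p up to 0.107), with the replicate number as a block (adjusted p = 0.062) and with RNA quality as a covariate (adjusted p = 0.114).

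Of the arrest genes, CDKN1A (p21) read 0.01, -0.01 and -0.16 in young and 1.64, 1.73 and 1.75 in senescent cells at 20% oxygen, against -0.19, -0.49 and -0.30 in young and 0.22, 0.02 and -0.12 in old cells at 3%. It rose by 1.76 ± 0.11 at 20% oxygen, with 0.37 ± 0.11 at 3% (adjusted p = 0.156) and an interaction of 1.39 ± 0.16 (adjusted p = 0.000161). CDKN2A (p16 and ARF) had an interaction of 0.61 ± 0.19 that was not called (adjusted p = 0.0765), with probe sets from -0.13 to 1.08, and it was called under 6 alternatives. Of 26 p53 targets, 5 were called higher and 1 lower (19.2% and 3.85%, against 2.06% and 4.37% of all genes). Without any 1 of 7 of the arrays 3 were called higher. RRM2B, a ribonucleotide reductase subunit, had 0.97 ± 0.14 and TP53I3 -1.17 ± 0.26. LMNB1, the nuclear lamin that senescent cells lose, had -0.73 ± 0.17 (adjusted p = 0.0231), and -0.45 without a call after quantile normalization (adjusted p = 0.398). EZH2, the Polycomb methyltransferase, had -0.92 ± 0.19, and -0.61 without a call after quantile normalization (adjusted p = 0.152).

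Proliferation genes were set apart by oxygen more than by passage. The mean of 50 mitosis genes was -0.95 ± 0.08 in young and -0.83 ± 0.06 in senescent cells at 20% oxygen, and 0.75 ± 0.07 in young and 1.11 ± 0.16 in old cells at 3% (SD, n = 3), so all arrays at 3% oxygen lay above all at 20%. In the interaction 5 were called lower (10%, against 4.37% of all genes) and none higher (2.06% of all genes). The median of -0.13 turned to 0.05 after quantile normalization, with 2 called lower. Of the fits without 1 array, 8 left 2 or 3 of the 5: those without replicate 2 or 3 of either group at 20% oxygen or of young cells at 3%, and replicate 1 or 2 of old cells. The kinase AURKA led them with -1.14 ± 0.15. MKI67 had -0.04 ± 0.19 and CCNA2 -0.29 ± 0.17, and neither was called. Of 44 DNA replication genes 1 was called in each direction (2.27% each, against 2.06% higher and 4.37% lower of all genes).

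The next lists are to be set against the 2.06% of all genes called higher and the 4.37% called lower. Of 33 genes of the ATF4 and endoplasmic reticulum stress response 8 were called higher and 1 lower (24.2% and 3.03%). The 8 included PCK2 (1.79 ± 0.27) and PSAT1 (1.12 ± 0.16), enzymes of the mitochondrial PEP and serine routes. NRF2 targets had 5 of 26 lower and 1 higher, with NQO1 (-1.41 ± 0.19) and EPHX1 (-1.76 ± 0.18), both detoxifying enzymes, at the front; other antioxidant genes had 2 higher and 2 lower of 19. Metallothioneins had 1 of 7 called higher, MT2A at 0.61 ± 0.14, with a list median of 0.52. None was called without replicate 2 of young or replicate 3 of senescent cells at 20% oxygen, 2 were called without replicate 1 of young cells at 20% oxygen, and 3 without replicate 2 of young cells at 3%. Of 6 CDK inhibitors 1 was called higher, and of 14 heat shock genes 2 lower. Interferon genes had 2 of 38 higher (5.26%) and 3 lower (7.89%), and cholesterol synthesis genes 1 of 21 higher (4.76%) and 2 lower (9.52%). Of 34 respiratory chain genes 1 was called lower (2.94%, near the share of all genes). Of 38 WNT and Notch genes 8 were called lower (21.1%) and 3 higher (7.89%). A panel of 27 genes chosen with these results known held 11 called higher and 9 lower; of its members not described elsewhere, the nuclear receptor ESRRA had -0.81 (adjusted p = 0.0454) and the stress cytokine GDF15 had 0.02.

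**Figure D3:**
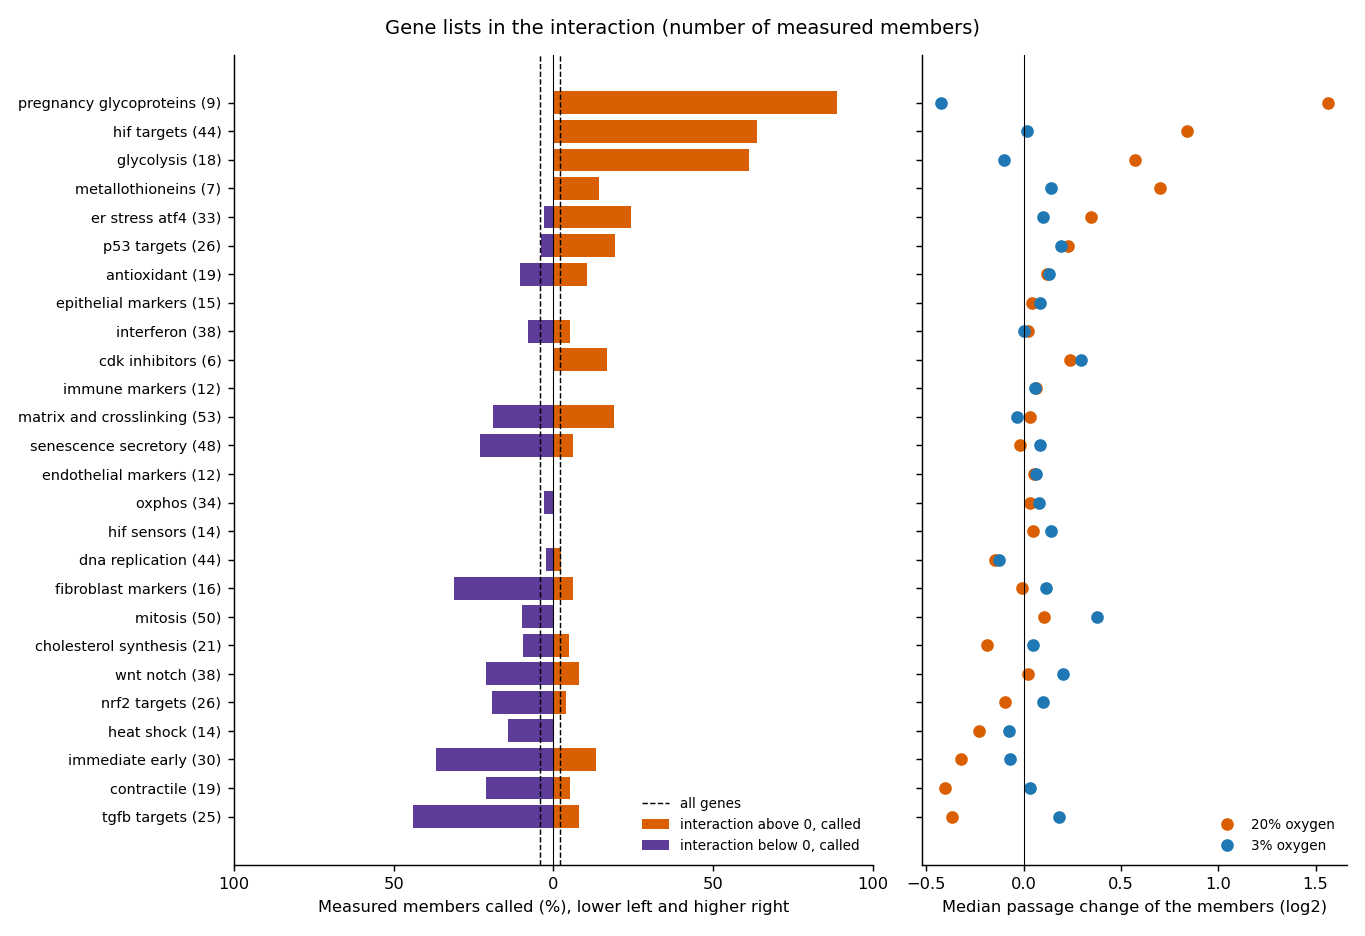
Left: share of each list's measured members called in the interaction (percent), with interaction above 0 to the right and below 0 to the left, and the shares over all genes as dashed lines; list sizes are in parentheses. Right: median passage change (log2) of each list at 20% and at 3% oxygen; the PSG genes (median 1.56 at 20% oxygen, -0.42 at 3%), HIF targets, metallothioneins and glycolysis genes lie furthest to the right at 20% oxygen.

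Changes at 3% oxygen only were called for 100 genes, 63 rising and 37 falling in old cells, with a median absolute change of 0.76 at 3% and 0.16 at 20% oxygen. Without replicate 1 or 2 of old cells the class held 53 or 57 genes, and 66 without replicate 2 of young cells at 3% oxygen. The interval of the 20% change lay within -0.5 to 0.5 for 71 of them. HSD17B2, which oxidises oestradiol and testosterone to their less active forms, read -0.21, -0.40 and -0.61 in young and 2.61, 2.19 and 1.83 in old cells at 3% oxygen, against 0.43, 0.28 and 0.17 in young and -0.25, -0.31 and -0.17 in senescent cells at 20%. Old cells at 3% oxygen were above every other array by more than 1 log2 unit. It rose by 2.62 ± 0.17 (6.13-fold, adjusted p = 4.74e-06), with -0.54 ± 0.17 at 20% oxygen (adjusted p = 0.0562) and an interaction of -3.16 ± 0.24. In 10 of the 12 fits without 1 array it stayed in the class.

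EDNRB, a receptor for endothelins, read -0.31, -0.24 and -0.22 in young and 2.61, 1.64 and 1.53 in old cells at 3% oxygen, and between -0.24 and 0.19 at 20% (interaction -2.52 ± 0.30). IL24, a cytokine of the IL-10 family, read -0.12, -0.21 and 0.30 in young and 2.13, 2.27 and 1.78 in old cells at 3% oxygen, and between -0.30 and 0.13 at 20% (interaction -1.91 ± 0.22). Both were high in old cells alone, and the other groups lay close together. The aggrecanase ADAMTS5 had -1.76 ± 0.20, with probe sets from -2.85 to 0.19. HEY1, a Notch target, rose by 1.08 ± 0.10 at 3% oxygen (interaction -1.31 ± 0.14).

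Among genes that fell at 3% oxygen only, SULF1, which removes 6-O-sulphates from heparan sulphate, read 0.73, 0.55 and 0.57 in young and -1.07, -1.06 and -1.25 in old cells at 3%, and between -0.33 and 0.11 at 20%. It fell by 1.74 ± 0.10 (interaction 1.52 ± 0.14, adjusted p = 4.43e-05), and old cells were below every other array. STARD4, a cholesterol carrier, fell by 1.28 ± 0.12 at 3% oxygen (interaction 1.05 ± 0.17), and the small heat shock protein gene HSPB6 by 0.95 ± 0.13 (interaction 1.10 ± 0.18). The long noncoding RNA LINC01279 read 0.39 to 0.59 in all 6 arrays at 20% oxygen, -0.53, -0.70 and -0.39 in young and -1.70, -1.88 and -1.88 in old cells at 3%, with an interaction of 1.32 ± 0.14.

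Opposite directions were called for 72 genes, 5.66% of the interaction calls: 54 fell in senescent cells at 20% oxygen and rose in old cells at 3%, and 18 did the reverse. Of the 72, 64 had an interaction of at least 1 log2 unit. In 71, young and late arrays did not overlap at either oxygen level. These counts follow in part from the choice of the class. The same non-overlap was found in 296 of the 983 genes called at 20% oxygen only and 42 of the 100 at 3% only. It was also found in all 25 called in the same direction, 58 of the 93 called in the interaction alone and 815 of the 18502 not called. When each array was left out in turn, 30 of the 72 were placed in the class in all 12 fits. The class held 40 genes without replicate 1 of young cells at 20% oxygen, and 45 or 46 without replicate 1 or 2 of old cells. The 12 genes described next were so in all 12 fits, except PSG7 in 6. A rule of size was also used in place of the calls of the passage changes, with the interaction still required to be called. It asked for both changes at least 0.5 in absolute value, opposite in sign, and arrays not overlapping. By this rule 70 genes had opposite directions, 13 with the interaction above and 57 below 0, and 49 of them were in the class.

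WNT2, a WNT ligand of the embryonic lung mesenchyme, read 1.29, 1.19 and 0.78 in young and -1.38, -1.87 and -1.13 in senescent cells at 20% oxygen. At 3% it read -0.68, -1.04 and -1.12 in young and 0.96, 0.69 and 0.68 in old cells. Passage thus took the 2 oxygen levels across each other: the young cells were higher at 20% and the late cells higher at 3%. WNT2 fell by 2.55 ± 0.19 at 20% oxygen (adjusted p = 3.2e-06) and rose by 1.73 ± 0.19 at 3% (adjusted p = 0.000409), with an interaction of -4.27 ± 0.27 (adjusted p = 1.48e-06).

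TRPA1, a cation channel gated by irritants and by oxidants, read 2.14, 2.05 and 2.29 in young and -0.44, -0.78 and -0.65 in senescent cells at 20% oxygen, and -0.60, -0.91 and -0.84 in young and 0.94, 0.57 and 0.53 in old cells at 3%. Senescent cells at 20% and young cells at 3% oxygen overlapped at the low end. The interaction was -4.25 ± 0.19 (adjusted p = 1.72e-07).

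CTHRC1, a secreted collagen triple helix repeat protein, read -0.01, 0.01 and 0.10 in young and -3.24, -3.32 and -3.19 in senescent cells at 20% oxygen, and -0.21, 0.01 and -0.13 in young and 0.47, 0.39 and 0.42 in old cells at 3%. The young groups overlapped and the senescent cells stood alone. It fell by 3.29 ± 0.09 at 20% oxygen and rose by 0.54 ± 0.09 at 3% (adjusted p = 0.0069), and the interaction was -3.82 ± 0.12. CCDC68, a centriole protein, was unequal the other way, with -0.68 ± 0.13 at 20% oxygen and 2.55 ± 0.13 at 3%. It read -1.18, -1.07 and -1.07 in young and 1.63, 1.44 and 1.25 in old cells at 3% oxygen.

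PRKAR2B, a regulatory subunit of protein kinase A, read 0.67, 0.84 and 0.59 in young and -1.69, -1.84 and -1.68 in senescent cells at 20% oxygen, and -0.25, -0.63 and -0.34 in young and 0.44, 0.25 and 0.39 in old cells at 3% (interaction -3.21 ± 0.16). CXCL8 (interleukin 8), a neutrophil chemokine, read 0.61, 0.61 and 0.83 in young and -1.32, -1.50 and -1.49 in senescent cells at 20% oxygen, and -0.72, -0.49 and -0.39 in young and 0.55, 0.49 and 0.39 in old cells at 3% (interaction -3.13 ± 0.15, adjusted p = 3.05e-07). In both genes young cells at 20% and old cells at 3% oxygen were the high groups and senescent cells the lowest.

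Of the 18 genes that rose at 20% oxygen and fell at 3%, RELN had the largest interaction. RELN encodes reelin, a secreted matrix glycoprotein. It read -0.06, -0.05 and -0.09 in young and 1.04, 1.07 and 1.02 in senescent cells at 20% oxygen, and 0.08, 0.21 and 0.05 in young and -1.91, -2.03 and -2.04 in old cells at 3%. The young groups were close together, and the means of the late groups were 3.04 apart. The change was 1.11 ± 0.08 at 20% oxygen and -2.10 ± 0.08 at 3% (interaction 3.21 ± 0.12, adjusted p = 1.63e-08).

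CPA4, a secreted carboxypeptidase, read 0.04, -0.22 and -0.04 in young and 1.81, 1.80 and 1.60 in senescent cells at 20% oxygen, and 0.23, -0.18 and 0.11 in young and -0.97, -0.99 and -1.03 in old cells at 3% (interaction 2.86 ± 0.17). PSG4, whose promoter is printed above, read 0.14, 0.01 and -0.19 in young and 1.44, 1.57 and 1.64 in senescent cells at 20% oxygen, and 0.08, -0.01 and -0.16 in young and -0.55, -0.91 and -0.96 in old cells at 3% (interaction 2.34 ± 0.18). In both genes, and in PSG7 (interaction 2.07 ± 0.13), the young groups overlapped and the late groups moved apart to either side. CCBE1, a secreted protein of lymphatic growth, had 2.05 ± 0.17, from 1.28 at 20% and -0.77 at 3% oxygen. MEST, an imprinted gene of the hydrolase fold, read 0.37, 0.20 and 0.28 in young and 0.89, 0.86 and 0.95 in senescent cells at 20% oxygen, and -0.33, -0.48 and -0.20 in young and -1.56, -1.56 and -1.70 in old cells at 3% (interaction 1.89 ± 0.13).

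**Figure D4:**
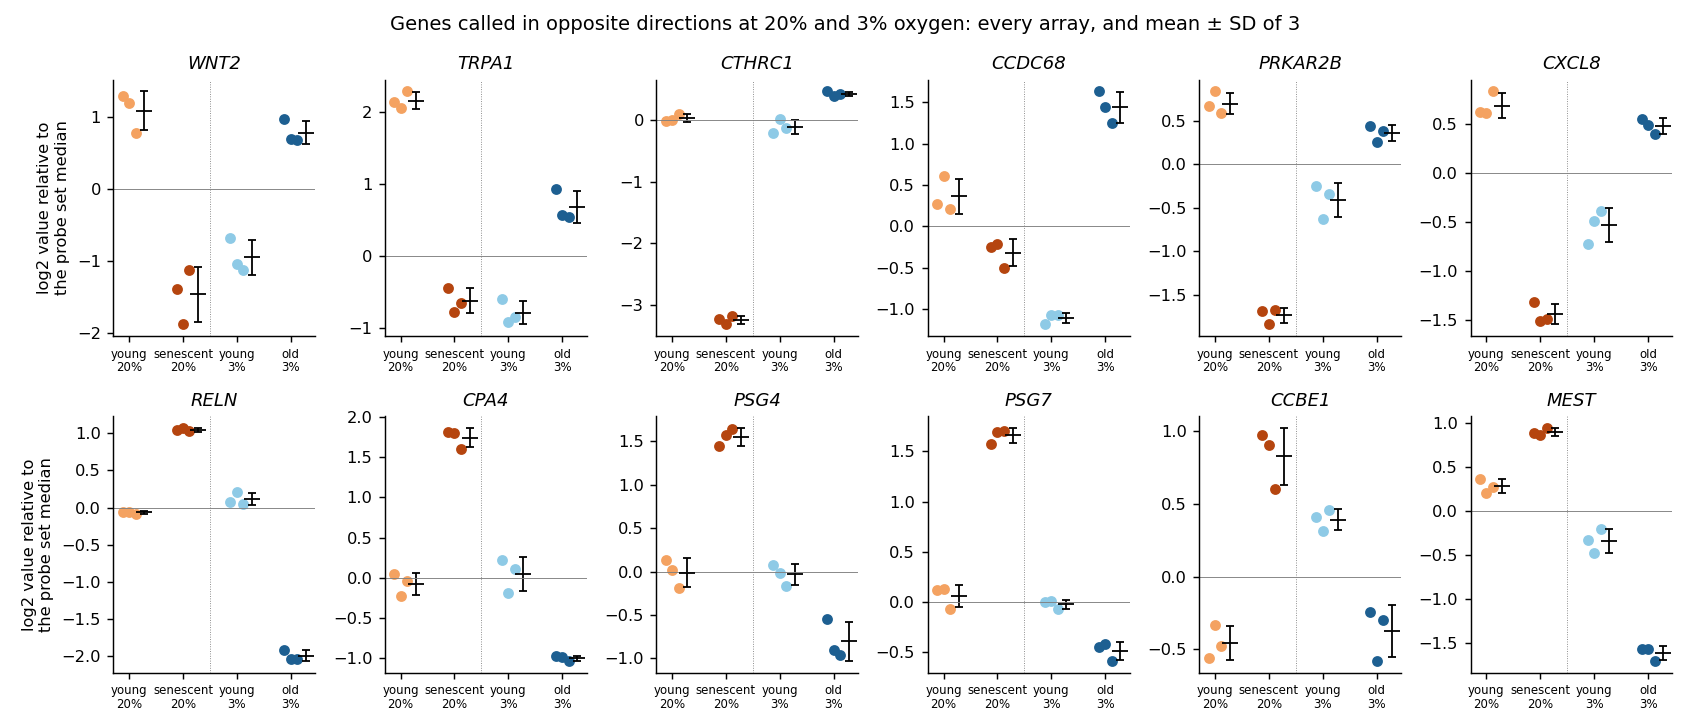
Log2 value relative to the probe set median (y axis) of every array for the 12 genes with the largest interactions in the opposite class, 6 below 0 (top) and 6 above 0 (bottom); coloured points are arrays, black marks the mean ± SD of 3. In each panel the late cells moved down at 20% and up at 3% oxygen (top) or up at 20% and down at 3% (bottom).

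The other genes of the class that fell at 20% and rose at 3% oxygen had interactions from -2.99 (CLEC2B, a C-type lectin) to -0.74 (NPC1, a lysosomal cholesterol transporter, whose probe sets ran from -2.27 to 0.23). A few were picked out after their values were seen because they act in the same pathway. Both cyclooxygenases, the enzymes that begin prostaglandin synthesis, were in it. PTGS1 had -0.83 ± 0.11 at 20% and 0.72 ± 0.11 at 3% oxygen. PTGS2 read -0.93, -1.01 and -1.17 in young and -1.90, -2.79 and -1.95 in senescent cells at 20% oxygen, and 1.11, 0.83 and 0.90 in young and 1.91, 1.71 and 1.77 in old cells at 3%. All arrays of PTGS2 at 3% oxygen were above all at 20%, its rise at 3% had an adjusted p of 0.049, and 3 of the 12 fits without 1 array placed it in the class.

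The aryl hydrocarbon receptor AHR, a ligand-activated transcription factor, had -0.32 ± 0.10 at 20% and 0.49 ± 0.10 at 3% oxygen, and its known target CYP1B1, a cytochrome P450, had -1.79 ± 0.15 and 0.77 ± 0.15. CYP1B1 is a mean of 4 probe sets with interactions from -4.70 to -0.25. AHR was placed in the class in 1 and CYP1B1 in 8 of the 12 fits without 1 array. BMP2, a ligand, had -0.48 ± 0.13 and 1.71 ± 0.13, ID3, a target of BMP signalling, -1.43 ± 0.14 and 0.62 ± 0.14, and the WNT antagonist DKK1 -1.04 ± 0.10 and 0.58 ± 0.10. DKK1 was placed in the class in all 12 such fits, BMP2 in 7 and ID3 in 1. Matrix genes of the class were COL5A3 (interaction -2.30 ± 0.20), COL15A1 (-1.40 ± 0.16) and VCAN (-1.09 ± 0.14), the proteoglycan versican. TNFRSF21, a death receptor, read 1.28, 1.06 and 1.24 in young and 0.20, 0.19 and -0.07 in senescent cells at 20% oxygen, and -1.62, -2.06 and -2.09 in young and 0.07, -0.30 and -0.31 in old cells at 3%. The young groups of TNFRSF21 were thus 3.12 apart and the late groups 0.28.

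The same interaction can be read the other way, as the oxygen difference (3% minus 20%) in young cells minus that in late cells. The oxygen difference was called for 2333 genes (11.8%) in young and 2176 (11.0%) in late cells. Of the genes called at 20% oxygen only, 433 had a called oxygen difference in young cells alone, 315 in late cells alone, 180 in both and 55 in neither. Genes called at 3% oxygen only fell 20, 44, 31 and 5 to these, in the same order, and the opposite class 16, 20, 36 and 0. Of those 36, 24 with the interaction below 0 and 5 with it above 0 had called oxygen differences of opposite sign in young and late cells. WNT2 was one, at -2.03 in young and 2.24 in late cells, and SHISA3, of the 20% class, was another case of crossing, at -2.90 ± 0.21 and 2.36 ± 0.21. RELN, CPA4 and PSG4 had small oxygen differences in young cells (0.18, 0.12 and -0.02, none called) and -3.04, -2.74 and -2.35 in late cells. These contrasts share arrays with the passage changes and add no independent evidence.

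**Figure D5:**
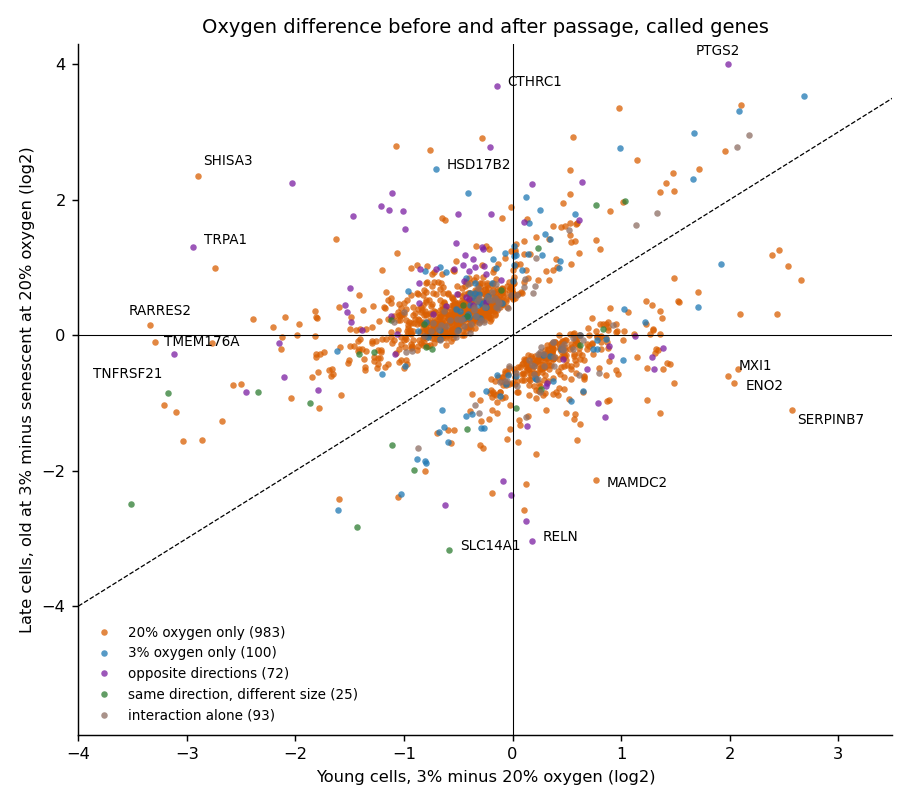
Oxygen difference (3% minus 20%, log2) in young cells (x axis) and late cells (y axis) for the 1273 called genes, coloured by class; the dashed line marks equal differences, which no called gene can lie on. Crossing genes such as SHISA3 and TRPA1 lie in the upper left, and RELN lies near 0 in young cells and at -3.04 in late cells.

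A change in the same direction with a different size was called for 25 genes, 16 with the interaction below 0. The class held 13 to 16 genes without replicate 1 or 3 of senescent cells, replicate 1 of young cells at 20% oxygen, or replicate 1 or 2 of old cells. SLC14A1, a urea transporter, read 0.51, 0.52 and 0.37 in young and 0.07, 0.03 and 0.13 in senescent cells at 20% oxygen, and -0.08, -0.23 and -0.04 in young and -3.18, -3.24 and -2.88 in old cells at 3%. Old cells at 3% oxygen were alone at the bottom: it fell by 2.98 ± 0.11 at 3% (7.9-fold) and by 0.39 ± 0.11 at 20% (interaction 2.59 ± 0.15, adjusted p = 7.73e-07). VANGL2, a planar cell polarity protein, fell by 2.07 ± 0.14 at 3% and 0.68 ± 0.14 at 20%. On the other side SERPINF1 (PEDF), a secreted anti-angiogenic serpin, fell by 2.92 ± 0.14 at 20% and 0.60 ± 0.14 at 3%, where the call was close to the threshold (adjusted p = 0.0493). LIF, a cytokine of the IL-6 family, fell by 2.36 ± 0.10 and 0.85 ± 0.10, and MMP1 rose by 1.80 ± 0.12 at 20% and 0.71 ± 0.12 at 3%. PTGIS, the prostacyclin synthase, had an interaction of -1.15 ± 0.13 as a mean of 3 probe sets that ran from -3.93 to 0.32.

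The interaction alone was called for 93 genes, 57 below 0 and 36 above, with neither passage change called. All had estimates of opposite sign at the 2 oxygen levels, which the choice of this class favours. The class held 57 genes without replicate 1 and 187 without replicate 3 of old cells, and 60 without replicate 3 of young cells at 20% oxygen. The median absolute change of the 93 was 0.31 at 20% and 0.37 at 3% oxygen. When each array was left out in turn, 2 of the 93 were placed in this class in all 12 fits, against 527 of the 983 genes called at 20% oxygen only and 40 of the 100 called at 3% only. SLC4A4, a sodium bicarbonate cotransporter, read 0.14, -0.10 and 0.35 in young and -0.28, -0.34 and -0.38 in senescent cells at 20% oxygen; its interaction was -1.02 ± 0.20, and was not called with the probe set of largest SD (adjusted p = 0.0764). CENPA, the centromeric histone, had -0.92 ± 0.20, from -0.34 ± 0.14 at 20% and 0.58 ± 0.14 at 3% oxygen.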

How the data were processed

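RNA of 12 IMR-90 samples was read on Affymetrix arrays with 54675 probe sets. The deposited log2 values were made by the authors with RMA, per the submitters' processing notes (version not given in the sources used here); that the base is 2 is taken from RMA, since no header states it. The median of every probe set over the 12 arrays was 0, so the authors' values are relative and array signal over background is unknown. Precision is limited by the 3 arrays per group.

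The 41091 probe sets that name 1 gene were averaged per gene (19775 genes, 10523 with several probe sets), with symbols updated to current ones. Another 1801 probe sets named several genes and 11721 none. The 4 group means were fitted with limma 3.58.1 in R 4.3.3 (lmFit, eBayes), and the interaction and 4 further contrasts were tested. The p-values were adjusted by Benjamini-Hochberg over all genes, separately for each contrast (threshold 0.05). The steps were tested on simulated data. Array medians, RNA quality, replicate pairing, normalization, probe set choice, thresholds and each array in turn were varied.

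The text names genes among the 10 highest and 10 lowest interactions, the 6 largest per class and sign, the 4 largest called members of each of 26 gene lists, and a panel of 27 genes; any other gene is named as a list member or as chosen after its values were seen. The members and lists were chosen with earlier results of these data known. Same-numbered senescent and old arrays deviated together (r = 0.129, 0.519 and 0.669), which held for no other pair of groups in all 3 numbers.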

Additional observations from a re-analysis of the deposited data

Results flagged for a closer look

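In 72 genes the passage change was called in opposite directions at the 2 oxygen levels, and the difference itself was tested as the interaction. Those with the largest values fell at 20% and rose at 3% oxygen, or the reverse, in every array compared with the young arrays of the same oxygen level. The interactions below 0 were those of WNT2 (-4.27), TRPA1 (-4.25), CTHRC1 (-3.82), CCDC68 (-3.23), PRKAR2B (-3.21) and CXCL8 (-3.13). Those above 0 were RELN (3.21), CPA4 (2.86), PSG4 (2.34), PSG7 (2.07), CCBE1 (2.05) and MEST (1.89).

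Probe sets that name no gene or several, which the report does not use, also held called interactions: 235 of 13522 (1.74%), 64 above and 171 below 0.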

How the results depend on the processing

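The number of genes called was 1273. It ranged from 858 to 1411 when each array was left out in turn, with 649 to 992 genes at 20% oxygen only, 53 to 136 at 3% only, 40 to 74 in opposite directions, 13 to 22 in the same direction and 57 to 187 in the interaction alone. Testing probe sets without averaging called 2475, of which 1941 were at 20% oxygen only, 163 at 3% only, 124 opposite and 212 alone, since more features were tested. Array quality weights called 2684 (2100 at 20% only, 129 opposite, 67 same direction, 265 alone). Replicate 1 of young and of senescent cells at 20% oxygen had weights of 5.54 and 5.69, the other arrays 0.37 to 1.73. An array-wide factor as a covariate also called 2684 (1454 at 20% only, 684 at 3% only, 215 opposite, 90 same direction, 241 alone). This factor held 48.55% of the within-group variance of the probe sets that name no gene. The cause of either count was not tested. An adjusted p under 0.01 left 624 (483, 52, 29, 8 and 52 in the order of classes above), and an interaction of at least 1 left 452 (328 at 20% only, 38 at 3% only, 13 same direction, 9 alone). With RNA quality as a covariate 48 genes were in the interaction alone. With the replicate number as a block 1125 genes were called, 15 of them in the same direction, and with the pairing used only for senescent and old arrays 1497. The block ended the calls of EMILIN1, GOLGA8A, GPX7, KIF11, MMP3, MSS51, NDC80, PRDX6 and UHRF1 among the named genes, and the block of the late arrays alone that of RAPGEF4-AS1. Without averaging, PTGIS reversed to 0.15 as the median of its 3 probe sets, which differ in sign. The median of their limma adjusted p-values was 0.257, which is not a test of that value.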

Other observations

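Of the 235 called probe sets that name no single gene, 204 changed at 20% oxygen only, 4 at 3% oxygen only, 3 in opposite directions, 1 in the same direction with a different size, and 23 in the interaction alone.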
